A study of Homo sapiens with 6 samples.

Results

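The genes of the insulin-like growth factor (IGF) axis described here are the ligands IGF1 and IGF2, the receptors IGF1R and IGF2R, and the binding proteins IGFBP2, IGFBP3, IGFBP4, IGFBP5, IGFBP6 and IGFBP7. They were taken by gene name from the deposited table, where all 10 were found among 57819 genes, and 9 of them had enough reads to be tested. RNA came from IMR90 cells, which are human lung fibroblasts. They carried ER:Ras, a Ras oncogene joined to an estrogen receptor domain that 4-hydroxytamoxifen (4OHT) switches on. Every library came from cells given 200 nM 4OHT over 3 days, so the controls received the treatment that switches on ER:Ras as well. Ras activity itself was not tested here. The 2 groups differed in their siRNA: a scrambled sequence (siSCR, control, 3 libraries) or an siRNA that targets sin-lncRNA, a long noncoding RNA (knockdown, 3 libraries). No cells without 4OHT are analysed here. The labels name 1 siRNA (si1) in all knockdown libraries. The columns of deposited values for these libraries are headed si1.3, an ending that the labels do not explain. The labels also do not say whether replicates came from separate cultures, so p-values measure only the spread between these libraries. The comparison addresses how the IGF axis of these 4OHT-treated fibroblasts differs when sin-lncRNA is depleted. Whether the cells of either group were senescent was not tested here.

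IGF1 and IGF2 are small secreted hormones that act through IGF1R, a receptor tyrosine kinase that signals through IRS adaptor proteins to PI3K and AKT. IGF2R, the cation-independent mannose 6-phosphate receptor, has no kinase: it takes up IGF2 for degradation and carries newly made enzymes to lysosomes. The IGFBPs bind the ligands outside the cell and hold them away from the receptor until proteases such as PAPPA cut them. IGFBP3 and IGFBP7 are known as components of the senescence-associated secretory phenotype, and IGFBP5 is abundant in fibroblasts.

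In these cells the receptors rose, the ligand IGF2 fell, and the binding proteins split. IGF1R approximately doubled in the knockdown libraries, and IGF2R rose by a smaller factor. IGFBP5, by far the most abundant of the 10 genes per exon length, rose, while IGFBP4, the next per exon length, fell. IGFBP2, IGFBP3, IGFBP6 and IGFBP7 did not pass the test. Of the 9 members tested, 5 changed, 3 upward and 2 downward (limma on log2 values, Benjamini-Hochberg adjusted p under 0.05). Over all 19048 genes tested, 41.0% changed, with 17.5% higher and 23.5% lower. All 9 members averaged 400 or more normalized reads (a limit set after their values were seen), and among the 9397 genes as deep as that the share was 54.5%. The members' share, 55.6%, was thus near that of equally deep genes. Their median log2 fold change was -0.09, beside -0.04 over all genes tested.

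The promoters of 4 of the 5 changed members are shown, because these genes moved in opposite directions and differ in base composition. RefSeq promoters (GRCh38.p14) were matched by symbol for 8 of the 10 members. IGF2 and IGFBP7 were not matched. Each sequence holds the 250 bases before the gene's start, 5′ to 3′ on the gene's strand. Capitals mark matches on either strand to any motif searched. The motif of Sp-family factors, the GC box, was searched as GGGCGG. The TATA box, where the basal machinery can bind, was searched as TATAAA. For the E-box of Myc-type factors the letters were CACGTG. The windows are chr15:98648289-98648538 (plus strand) for IGF1R, chr6:159968832-159969081 (plus strand) for IGF2R, chr2:216695550-216695799 (minus strand) for IGFBP5 and chr17:40443200-40443449 (plus strand) for IGFBP4.
IGF1R: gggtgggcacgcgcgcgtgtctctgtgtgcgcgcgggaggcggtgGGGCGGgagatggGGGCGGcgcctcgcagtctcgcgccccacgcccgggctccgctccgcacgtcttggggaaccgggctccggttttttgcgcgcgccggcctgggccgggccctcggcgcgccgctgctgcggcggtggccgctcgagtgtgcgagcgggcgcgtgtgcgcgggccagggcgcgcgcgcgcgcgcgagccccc
IGF2R: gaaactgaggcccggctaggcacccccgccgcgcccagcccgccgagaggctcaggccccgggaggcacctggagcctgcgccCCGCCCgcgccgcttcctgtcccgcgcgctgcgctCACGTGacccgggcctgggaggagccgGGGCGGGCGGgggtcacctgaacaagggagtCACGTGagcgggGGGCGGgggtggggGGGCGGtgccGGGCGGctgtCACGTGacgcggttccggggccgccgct
IGFBP5: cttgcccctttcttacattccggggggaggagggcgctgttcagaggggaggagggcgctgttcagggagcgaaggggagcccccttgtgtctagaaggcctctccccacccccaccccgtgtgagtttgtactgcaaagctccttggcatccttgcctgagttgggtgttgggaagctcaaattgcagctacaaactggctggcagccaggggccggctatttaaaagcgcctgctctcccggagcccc
IGFBP4: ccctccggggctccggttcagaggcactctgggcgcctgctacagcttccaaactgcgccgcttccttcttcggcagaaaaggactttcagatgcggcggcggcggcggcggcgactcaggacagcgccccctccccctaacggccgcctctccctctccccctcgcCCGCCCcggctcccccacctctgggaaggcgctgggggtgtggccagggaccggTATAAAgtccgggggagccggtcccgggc

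The receptor promoters were the richest in G and C, at 81.2% for IGF1R and 79.2% for IGF2R, against a median of 58.0% over 35116 promoters. IGFBP4 had 71.6% and IGFBP5 61.2%. The IGF1R window held 2 GC boxes and no TATA box. IGF2R held 6 GC boxes, of which 1 pair overlaps, and 3 E-boxes that start 132, 74 and 28 bases before the gene. At least 1 GC box was found in 42.6% of all promoters, an E-box in 6.34%, and 2 or more E-boxes in 0.535%. IGFBP4 held 1 GC box and a TATA box that starts 29 bases before the gene, a motif found in 10.7% of promoters. The IGFBP5 window held none of the letters searched, which also included CCAAT (32.0% of promoters), the AP-1 site TGANTCA (6.57%) and the FOXO site TGTTTAC (2.98%). These matches describe letters in the windows and are not evidence of binding.

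The libraries held 22117324 to 50913672 reads in genes, and all knockdown libraries were shallower than the shallowest control, so depth and group cannot be told apart from the libraries themselves. The targeted lncRNA, listed as ENSG00000234693.1, had 3.70, 4.73 and 4.09 RPM in control replicates 1, 2 and 3 and 0.493, 0.640 and 0.534 RPM in the knockdowns. RPM is CPM without the offset, that is, reads scaled to the effective library size. The log2 fold change of sin-lncRNA was -2.86 (SE 0.18). All 10 fibroblast markers checked (among them COL1A1, COL1A2 and VIM) were tested, with a summed level of 15667 to 16885 RPM in controls and 11355 to 11756 RPM in knockdowns. Of these, 5 were higher and 5 lower (100% called, beside 41.0% of all genes tested and 54.5% of those averaging 400 or more reads). The part of these shifts in the results was not tested. Immune markers (0 of 6 tested) summed to at most 0.641 RPM in any library. Epithelial markers summed to 28.0 to 31.4 RPM, and of the 4 tested 1 was higher and 2 were lower (75.0%). The 4 endothelial markers found summed to 6.99 to 8.84 RPM, and of the 2 tested 1 was higher (50.0%). CDH1, SFTPC, CDH5 and KDR were below the read minimum. In bulk RNA, fewer cells of a type and less RNA per cell cannot be told apart.

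IGF1R (ENSG00000140443.9, plus strand of chromosome 15, 99192200 to 99507759 in hg19, the build of the table), the kinase receptor of the axis, had 53.3, 64.3 and 59.6 RPM in control replicates 1, 2 and 3. The knockdown replicates had 115, 119 and 124 RPM. Every knockdown library lay far above every control, and the groups did not overlap. The mean went from 59.1 ± 5.5 to 119 ± 4.1 RPM (SD, n = 3). The log2 difference was 1.02 (SE 0.07; limma adjusted p = 1.1e-06). Only 1.65% of the genes tested had a higher log2 fold change. The exact permutation test, two-sided, gave p = 0.1 (no smaller value is possible with 3 libraries a group) for each of the 5 changed members. In 18 other fits the log2 fold change of IGF1R ran from 0.94 to 1.08, and it passed the test in all of them.

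**Figure D1:**
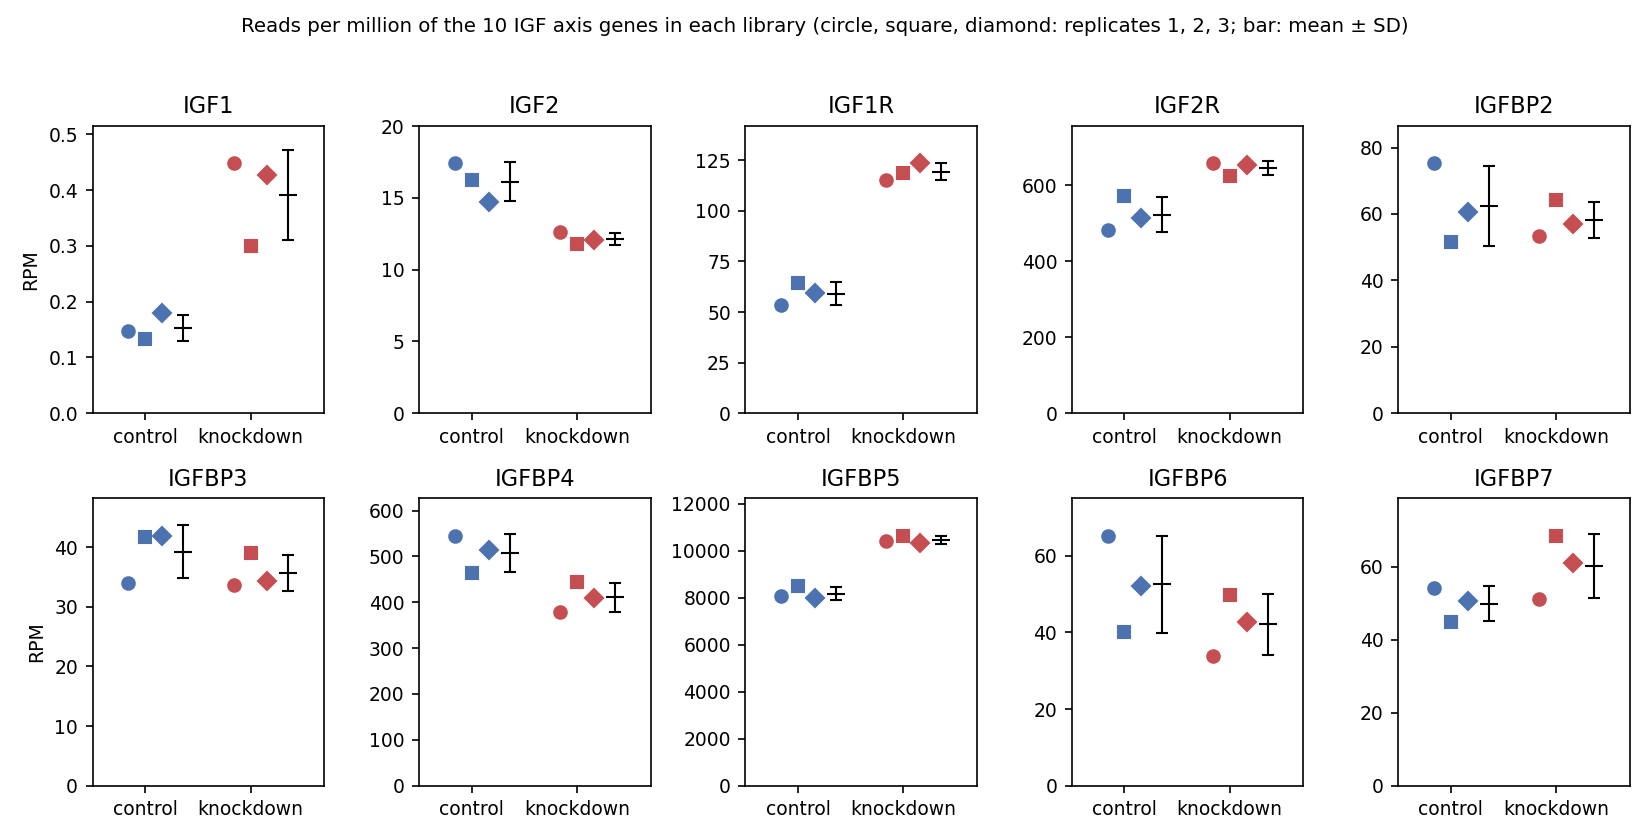
RPM (y axis, from 0, a scale of its own in each panel) of the 10 IGF axis genes in the 3 control and 3 knockdown libraries, with the mean ± SD beside each group. IGF1R sits between 53.3 and 64.3 RPM in controls and between 115 and 124 RPM in knockdowns, while IGFBP2, IGFBP3, IGFBP6 and IGFBP7 overlap between the groups.

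IGF2R (ENSG00000197081.8, plus strand of chromosome 6, 160390131 to 160534539) had 481, 571 and 514 RPM in controls and 658, 625 and 652 RPM in knockdowns. The lowest knockdown library was above the highest control. The mean rose from 522 ± 45 to 645 ± 17 RPM (SD, n = 3). On the log2 scale the difference was 0.31 (SE 0.06; limma adjusted p = 0.0016). With a trend on GC content and transcript length removed from each library it was 0.20 (limma adjusted p = 0.0034). A pseudogene and a lincRNA inside IGF2R on the same strand were listed with 108 to 279 and 92 to 174 reads, beside 14642 to 25872 for IGF2R itself. The ratio of IGF2R to IGF1R per exon length, for which no test was run, went from 6.91 ± 0.16 to 4.23 ± 0.20 (SD, n = 3).

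INSR, the insulin receptor, which pairs with IGF1R in hybrid receptors, had 5.36 ± 0.41 RPM in controls and 4.63 ± 0.87 RPM in knockdowns (SD, n = 3). Its groups overlapped and its log2 fold change of -0.22 (SE 0.14; limma adjusted p = 0.242) did not pass the test. Per exon length, IGF1R stood at 8.28 ± 0.70 times INSR in controls and 19.8 ± 4.2 times in knockdowns. The second knockdown library, at 24.6, was the highest, where INSR was lowest (3.63 RPM). Genes averaging 50 or more normalized reads were ranked by likeness to IGF1R, and the 3 whose log2 values over the 6 libraries lay nearest to it, after centring each gene on its own mean, were ITGBL1, NALCN and SPOCK1. Their Euclidean distances were 0.116, 0.119 and 0.132 among 15114 genes. Their log2 fold changes were 1.01, 0.99 and 0.95, which lie near that of IGF1R because the genes were chosen by this likeness.

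IGF2 (ENSG00000167244.13, minus strand of chromosome 11, 2150342 to 2170833), the fetal growth ligand, was the main ligand transcript here. It had 17.4, 16.2 and 14.7 RPM in controls and 12.6, 11.8 and 12.1 RPM in knockdowns. All knockdown libraries were below all controls, and they also varied less. The mean went from 16.1 ± 1.4 to 12.2 ± 0.4 RPM (SD, n = 3). The log2 difference was -0.40 (SE 0.08; limma adjusted p = 0.0019). The gene overlaps INS-IGF2, MIR483 and AC132217.4 on the same strand, each with 0 reads in every library. On the other strand it overlaps IGF2-AS, which held at most 2 reads in any library. How reads shared by overlapping genes were counted was not tested. Per exon length, IGF2R stood at 12.7 ± 1.7 times IGF2 in controls and 20.8 ± 0.4 times in knockdowns.

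IGF1 (ENSG00000017427.11, minus strand of chromosome 12, 102789645 to 102874423), the ligand that serves growth hormone, was barely detected and was not tested. It had 5, 4 and 9 reads in the control libraries and 10, 7 and 12 reads in the knockdowns. In RPM these were 0.147, 0.133 and 0.179 in controls and 0.448, 0.299 and 0.427 in knockdowns, so the groups did not overlap, but every value rests on 12 reads or fewer. In a fit without the filter on low values its log2 fold change was 1.29 (limma adjusted p = 0.068). The median over all genes in that fit was 0.60, but 28345 to 30724 of the 57819 genes had no reads in each library. That median is thus no baseline for IGF1. With so few reads, and without passing the test, IGF1 is not read as a rise. The hormone gene INS had 0 reads in all 6 libraries, which allows up to 0.0596 to 0.134 RPM (3 reads a library, counting error only). IGF2 exceeded IGF1 by more than an order of magnitude per exon length in each library, as the plot of levels per exon length shows.

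**Figure D2:**
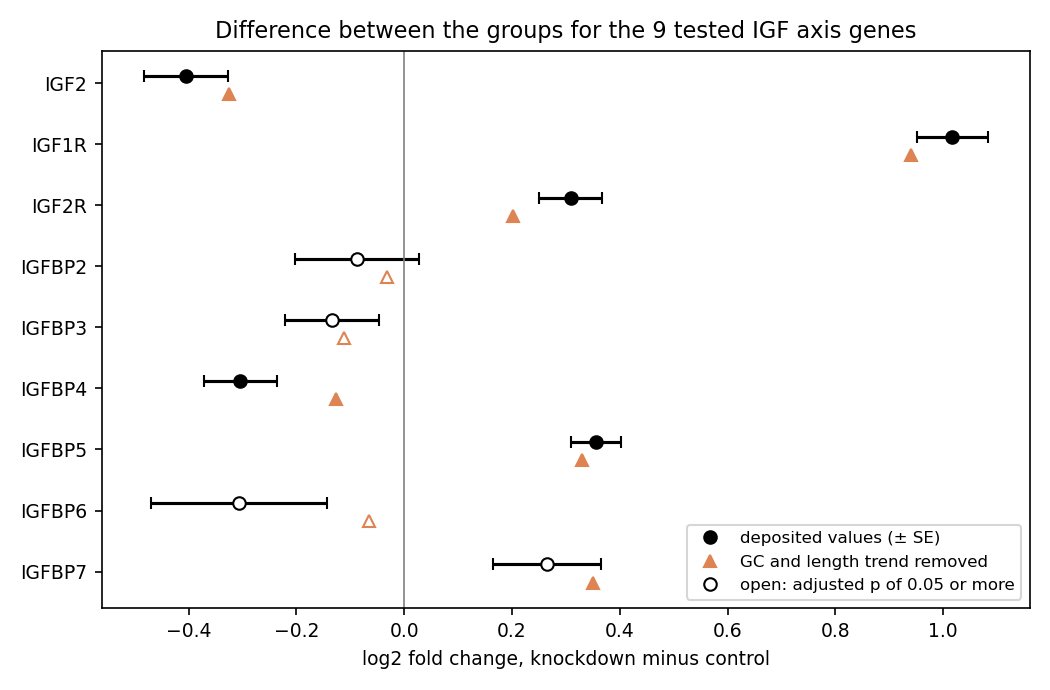
Log2 fold change, knockdown minus control, of the 9 tested members on the deposited values (circles with SE) and without the GC and length trend (triangles), filled where the adjusted p is under 0.05. IGF1R stands at 1.02, IGFBP5, IGF2R and IGFBP7 lie above 0, and IGFBP4 and IGFBP6 are the circles that lie farthest from their triangles.

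Among the binding proteins, IGFBP5 (ENSG00000115461.4, minus strand of chromosome 2, 217536828 to 217560248) had the highest level per exon length of the members. Controls had 8052, 8496 and 7964 RPM and knockdowns 10418, 10641 and 10308 RPM. The spread within each group was small beside the gap between them. The mean rose from 8171 ± 285 to 10456 ± 170 RPM (SD, n = 3). On the log2 scale the difference was 0.36 (SE 0.05; limma adjusted p = 0.00016). Quantile normalization, which by its construction gives the top ranks like values in every library, lowered it to 0.19 (limma adjusted p = 0.0031). IGFBP5 alone held 0.812% ± 0.028 of all reads in controls and 1.05% ± 0.02 in knockdowns.

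IGFBP4 (ENSG00000141753.5, plus strand of chromosome 17, 38599702 to 38613983), the substrate best known for cleavage by PAPPA, had 546, 464 and 513 RPM in controls. It had 379, 444 and 409 RPM in knockdowns. The highest knockdown library was only slightly below the lowest control. The mean fell from 507 ± 41 to 411 ± 32 RPM (SD, n = 3). The log2 difference was -0.30 (SE 0.07; limma adjusted p = 0.0043). With the GC and length trend removed the call held but the log2 fold change was -0.13 (limma adjusted p = 0.0088). IGFBP4 is rich in G and C, at 62.5% of its longest transcript.

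IGFBP2, IGFBP3, IGFBP6 and IGFBP7 did not pass the test, and their groups overlapped. IGFBP2 (ENSG00000115457.5, chromosome 2, 217497551 to 217529159), which carries both ligands, had 75.3, 51.4 and 60.5 RPM in controls and 53.4, 64.1 and 57.0 RPM in knockdowns. Its log2 fold change was -0.09 (SE 0.12), and 0.06 without control replicate 1, the highest library. IGFBP3 (ENSG00000146674.10, chromosome 7, 45951949 to 45961473), the main carrier of IGFs in blood, had 34.1, 41.8 and 42.0 RPM in controls and 33.6, 39.1 and 34.4 RPM in knockdowns. Control replicate 1 was as low as the knockdowns. The log2 fold change of IGFBP3 was -0.13 (SE 0.09; limma adjusted p = 0.251), and without that control it was -0.23 (limma adjusted p = 0.026).

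IGFBP6 (ENSG00000167779.3, chromosome 12, 53491220 to 53496129), which prefers IGF2 as ligand, had 65.3, 40.2 and 52.1 RPM in controls and 33.9, 49.7 and 42.9 RPM in knockdowns. Its libraries spread the most of the tested members in both groups. The log2 fold change was -0.31 (SE 0.16; limma adjusted p = 0.159). Without control replicate 2, the lowest control, it was -0.49 (limma adjusted p = 0.0088), and with the GC and length trend removed it was -0.07. IGFBP7 (ENSG00000163453.7, chromosome 4, 57896939 to 57976551), a secreted factor tied to oncogene-induced senescence, had 54.3, 44.8 and 50.6 RPM in controls and 51.1, 68.6 and 60.9 RPM in knockdowns. Only the first knockdown library fell within the range of the controls. Its log2 fold change was 0.26 (SE 0.10; limma adjusted p = 0.055), and it passed the threshold in 8 of the 18 other fits, among them 0.38 without knockdown replicate 1 (limma adjusted p = 0.0069) and 0.33 without control replicate 1 (limma adjusted p = 0.034). Another of the 8 was the fit without a filter on low values, where the log2 fold change was the same and only the SE was smaller (0.06). IGFBP7 overlaps POLR2B on the opposite strand by 396 bp, so some of its reads are uncertain. Of the tested members, 5 of 9 had groups that did not overlap, the same 5 that changed, beside 51.1% of all genes and 62.3% of genes with at least 400 reads.

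**Figure D3:**
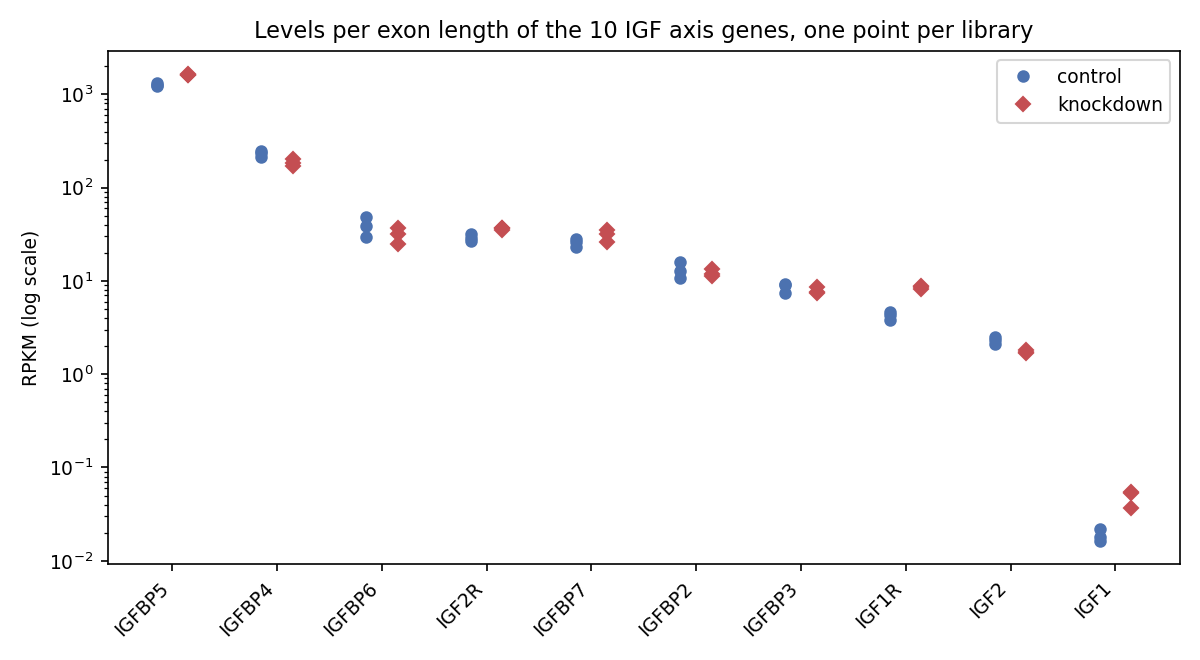
Level per exon length (RPKM, log axis) of the 10 genes in each library, ordered by the control mean, with circles for controls and diamonds for knockdowns. IGFBP5 lies above 1000 RPKM in every library and IGF1 below 0.1 RPKM, with the other 8 genes between them.

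Levels were compared between genes only per length, as RPKM (RPM per kilobase of exon in GENCODE 29). In controls IGFBP5 stood at 1268 ± 44 RPKM and IGFBP4 at 231 ± 19, and no other member reached 50 RPKM. IGFBP6 (39.0 ± 9.3), IGF2R (29.3 ± 2.5) and IGFBP7 (25.9 ± 2.5) followed, and the control libraries of IGF2R overlapped those of both its neighbours in this order. Below them came IGFBP2 at 13.1 ± 2.5, IGFBP3 at 8.59 ± 0.99, IGF1R at 4.24 ± 0.40, IGF2 at 2.31 ± 0.19 and IGF1 at 0.0188 ± 0.0029 RPKM (SD, n = 3). In knockdowns IGF1R, at 8.56 ± 0.30 RPKM, reached the level of IGFBP3, at 7.81 ± 0.65, and the libraries of these genes overlapped. The summed RPKM of IGFBP1 to IGFBP7 was 1586 ± 25 in controls and 1892 ± 49 in knockdowns. IGFBP5 made up 78.2%, 82.3% and 79.4% of that sum in controls and 87.0%, 84.8% and 85.6% in knockdowns, and IGFBP4 14.6% ± 1.2 and 9.86% ± 0.55.

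IGFBP2 and IGFBP5 lie on opposite strands of chromosome 2, their ends facing each other with a gap of 7668 bp and 0 listed genes between. Their log2 fold changes were -0.09, which did not pass the test, and 0.36, and the difference between these genes was not tested. IGFBP3 faces IGFBP1 on chromosome 7 in the same way, with a gap of 18681 bp, and IGFBP1 had 0 to 2 reads per library.

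Within the groups, IGFBP2, IGFBP4, IGFBP6 and IGFBP7 followed 1 order of libraries. All 4 were highest in control replicate 1 and lowest in control replicate 2, and lowest in knockdown replicate 1 and highest in knockdown replicate 2. On the log2 scale the controls spanned 0.55 for IGFBP2, 0.23 for IGFBP4, 0.70 for IGFBP6 and 0.28 for IGFBP7. With the GC and length trend removed, the span of IGFBP4 shrank to 0.06 in controls and from 0.23 to 0.04 in knockdowns. For IGFBP6, whose longest transcript is 64.1% G and C, it went to 0.33 in controls and from 0.55 to 0.25 in knockdowns. IGFBP7, with 52.1% G and C, kept a span of 0.27 in controls, and IGFBP2 one of 0.46. The receptors ran the other way in controls, where IGF1R and IGF2R were lowest in replicate 1 and highest in replicate 2.

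**Figure D4:**
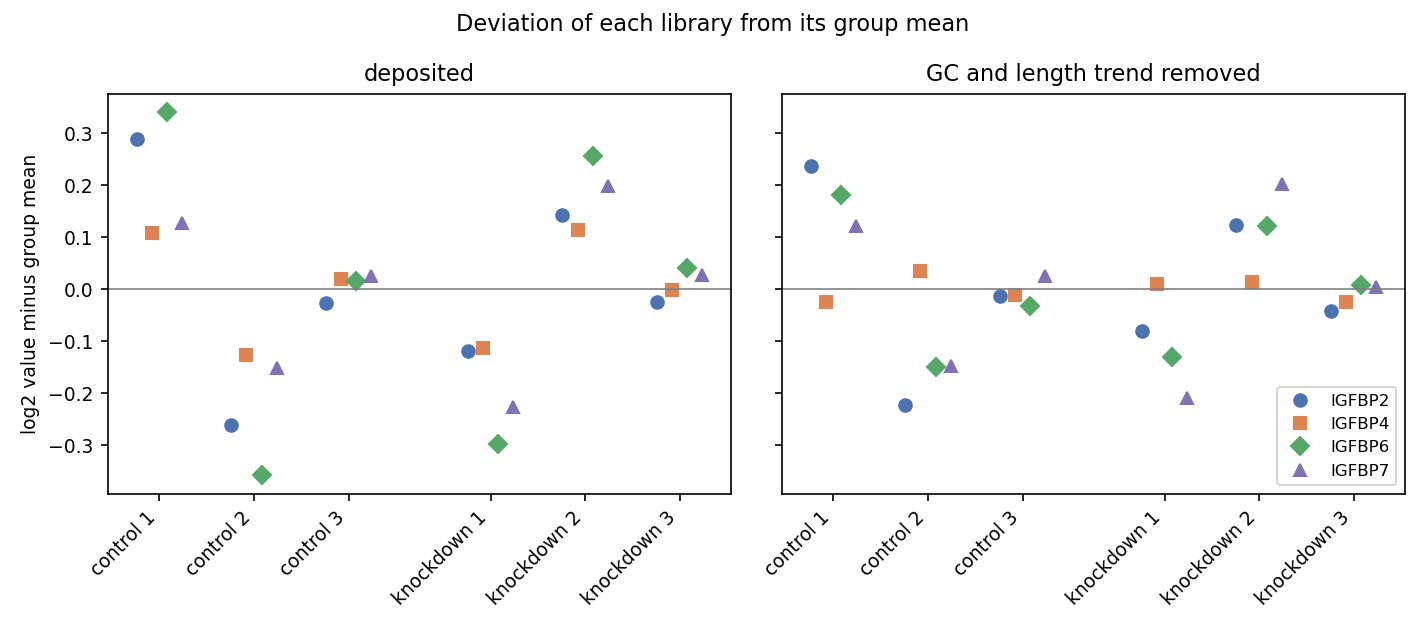
Deviation of each library from its group mean (y axis, log2) for IGFBP2, IGFBP4, IGFBP6 and IGFBP7, on the deposited values (left) and with the GC and length trend removed (right). Control replicate 1 and knockdown replicate 2 are high on the left for all 4 genes, and the points of IGFBP4 close up to a span of 0.06 in controls on the right.

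Another 6 lists of related genes, 78 in all, were examined beside the members. Of the 65 tested, 27 were higher and 18 lower, or 69.2%, with a median log2 fold change of 0.03. Over all genes tested the share was 41.0%, and among those averaging 400 or more reads 54.5%, and the shares below are to be read beside these. Of 13 tested IGFBP proteases and protease inhibitors 7 rose and 4 fell (84.6%), and the median was 0.20. PAPPA, the secreted metalloprotease that cuts IGFBP4 and IGFBP5, had 106, 118 and 105 RPM in controls and 398, 376 and 391 RPM in knockdowns. Its lowest knockdown library was more than 3 times its highest control. The log2 fold change was 1.83 (SE 0.05; limma adjusted p = 8.4e-09). ADAM12, a metalloprotease that cuts IGFBP3 and IGFBP5, rose from 8.61 ± 1.97 to 59.2 ± 3.1 RPM (SD, n = 3), or 2.80 on the log2 scale (SE 0.13; limma adjusted p = 1.1e-07). The serine protease HTRA3 rose from 10.3 ± 0.6 to 21.4 ± 1.8 RPM, which is 1.05. on the log2 scale

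The stanniocalcins, secreted inhibitors of PAPPA, moved apart. STC1 went from 3333 ± 158 to 2424 ± 147 RPM (SD, n = 3). On the log2 scale the difference was -0.46 (SE 0.05; limma adjusted p = 7.2e-05). STC2, named here after its values were seen, rose from 116 ± 6 to 214 ± 7 RPM, which is 0.89 on the log2 scale (SE 0.05; limma adjusted p = 5.0e-07). Per exon length, the ratio of PAPPA to the sum of STC1 and STC2 went from 0.0115 ± 0.0004 in controls to 0.0543 ± 0.0023 in knockdowns, and that of PAPPA to IGFBP4 from 0.0414 ± 0.0060 to 0.181 ± 0.019. The plasminogen activators PLAT and PLAU fell, with log2 fold changes of -0.51 (SE 0.07) and -0.26 (SE 0.04).

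Genes downstream of the receptor went both ways. Of 31 tested adaptors and PI3K-AKT pathway genes, 12 rose and 11 fell (74.2%), and the median was -0.05. IRS1, a docking protein of IGF1R, had 222, 194 and 211 RPM in controls and 161, 179 and 167 RPM in knockdowns. All knockdowns were below all controls, and the log2 fold change was -0.31 (SE 0.06; limma adjusted p = 0.0017). IRS2 stood at -0.40 on the log2 scale (SE 0.15; limma adjusted p = 0.048), but its groups overlapped. It was not called in 10 of 18 other fits, among them those without control replicates 1 (-0.29) or 3 (-0.32) or without any 1 of the knockdowns (adjusted p in limma up to 0.181 over the 18 fits). The largest rises were those of PIK3R3 (log2 fold change 0.67), a regulatory subunit of PI3K, FOXO4 (0.59), a transcription factor restrained by AKT, and SOCS3 (0.51), a feedback inhibitor of cytokine signalling. SOCS2, an inhibitor of growth hormone signalling, had a log2 fold change of -0.43. EIF4EBP1, the translation repressor that mTOR switches off, had one of -0.37 (limma adjusted p = 0.0012), which was -0.11 with the GC and length trend removed (limma adjusted p = 0.219).

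**Figure D5:**
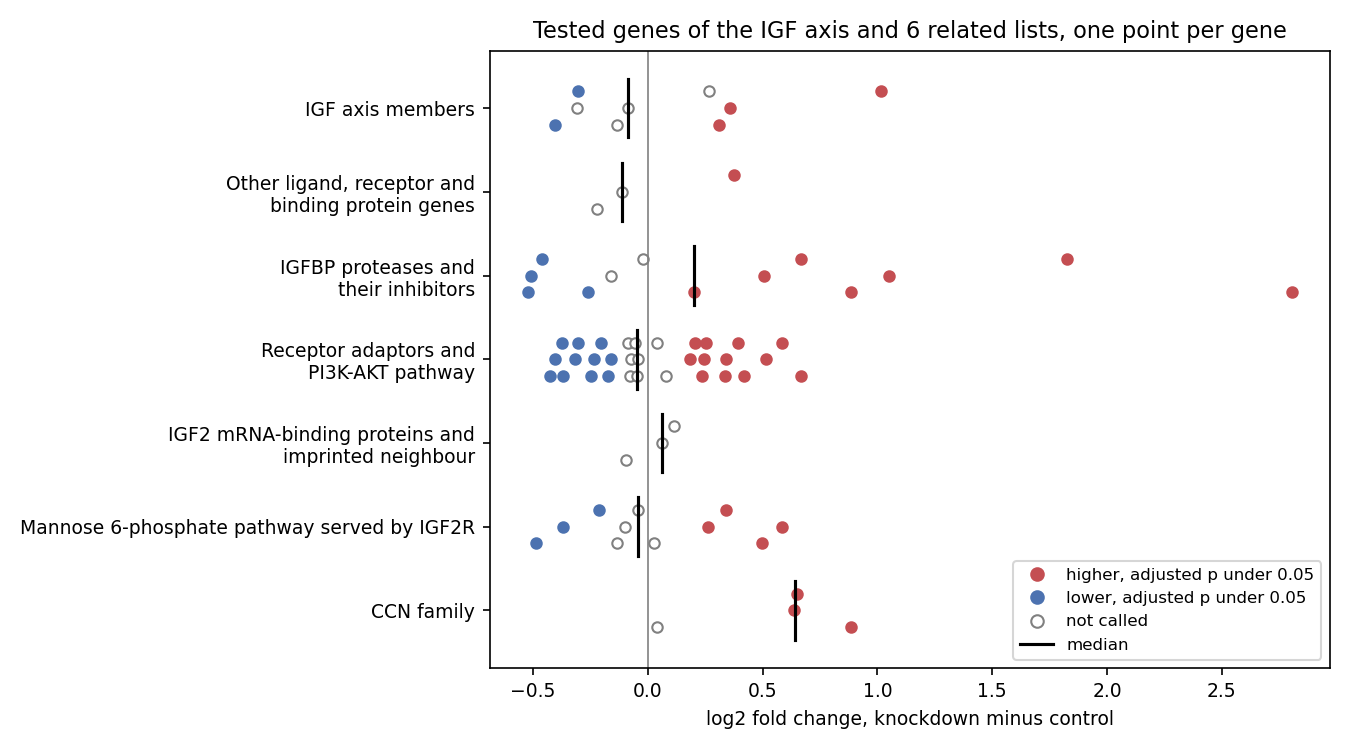
Log2 fold change (x axis, knockdown minus control) of each tested gene of the IGF axis and the 6 related lists, filled where called, with a bar at each list's median. ADAM12 at 2.80 and PAPPA at 1.83 are the points farthest to the right, in the list of IGFBP proteases and inhibitors, and the adaptor and PI3K-AKT list spreads to both sides of 0.

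Partners of IGF2R in the mannose 6-phosphate route also split. Of 11 tested, 4 rose and 3 fell (63.6%), and the median was -0.04. Among those that make or read the sugar tag, NAGPA, which uncovers it, rose by 0.58 on the log2 scale (SE 0.08; limma adjusted p = 0.00022), GNPTAB, the transferase that adds it, by 0.50 (SE 0.05), and M6PR, the smaller receptor, by 0.34 (SE 0.06). GNPTG, a subunit of the transferase that is named here after its values were seen, rose by 0.26 (SE 0.09; limma adjusted p = 0.038). Among the sorting factors that fell, GGA3, an adaptor at the Golgi, had a log2 fold change of -0.49 (SE 0.05), and the retromer subunits VPS29 and VPS35 had -0.37 (SE 0.05) and -0.21 (SE 0.05). The other 4 genes of the list, GGA1, GGA2, PLIN3 and VPS26A, were not called, so the sorting factors did not fall as a group.

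Of the 3 tested IGF2 mRNA-binding proteins none was called, with log2 fold changes of 0.06 for IGF2BP1, 0.11 for IGF2BP2 (limma adjusted p = 0.052) and -0.10 for IGF2BP3. At an unadjusted p under 0.05 the count was 1, for IGF2BP2. This gene was called, with adjusted p from 0.019 to 0.0496, by voom on the recovered reads and by limma with a minimum of 50 reads, with scaling to library totals and with quantile normalization. IGF2BP3 was called with the GC and length trend removed (-0.16; limma adjusted p = 0.0054). In the CCN family, matricellular proteins that share an IGFBP-like domain, 3 of 4 tested genes rose (75.0%), and the median was 0.64. WISP1 rose by 0.88 on the log2 scale (SE 0.09), CTGF by 0.65 (SE 0.07) and CYR61 by 0.63 (SE 0.07), with limma adjusted p-values of 1.9e-05, 2.7e-05 and 3.3e-05, while NOV, the remaining one, stood at 0.04. Of 3 other tested genes with ligand, receptor or binding protein features, ESM1 passed the test (0.38, SE 0.13; limma adjusted p = 0.042) on 2.78 ± 0.34 and 3.60 ± 0.26 RPM. That call was lost in 7 of 18 other fits, among them those without control replicates 1 (0.28) or 2 (0.38) or knockdown replicates 2 (0.33) or 3 (0.37), with limma adjusted p up to 0.128.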

How the data were processed

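Poly(A) RNA was read as single 50 bp reads, per the labels' protocols. Reads were aligned with Bowtie2 to hg19 and counted with featureCounts, per the submitters' processing notes, which give no versions; the strand setting is not given in the sources used here. The authors deposited log2 values: in every library, undoing an offset of 0.5 reads gave whole reads for 100% of values (tolerance 1e-06 reads), so the log2 values are log2 CPM on an effective library size. Differences were tested with limma 3.58.1 (R 4.3.3; lmFit, eBayes with trend, two-sided) on the deposited log2 values of 19048 genes with a mean of at least 10 normalized reads, with Benjamini-Hochberg adjustment over all of them, called at 0.05. The fit was also run on simulated reads with far fewer changed genes than were called here. These had the same dispersion for every gene and no GC trend, so that run does not measure the error of the calls made here. Means ± SD are in RPM (reads recovered, without the offset) over 3 libraries. RPKM used exon lengths and the GC trend used transcripts of GENCODE 29, matched by gene ID for 97.4% of tested genes; no coordinates were converted. A count of 0 allows 3 reads. Same-numbered replicates did not deviate together, so no block was used. Genes outside the 10 members were named as the 3 largest called rises and falls of each list with at least 50 normalized reads, plus INSR, IRS1, IRS2, PAPPA, IGFBP1 and the IGF2 mRNA-binding proteins. INS, NOV, H19, STC2 and GNPTG were named after their values were seen. The members and lists were chosen with earlier results of these data known. Alternatives changed the pseudocount, filter, scaling, variance model, libraries, block, depth or GC trend.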

Additional observations from a re-analysis of the deposited data

How the results depend on the processing

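In 18 other fits, the 5 changed members (IGF1R, IGF2R, IGF2, IGFBP4, IGFBP5) kept their direction and their call, and the number of members called ran from 5 to 7 (5 to 7 when 1 library was dropped). All genes called ran from 5803 to 10220 (5803 to 7330 when 1 was dropped, lowest without control replicate 3), and genes called in the 6 related lists from 39 to 47. The highest count of all genes came without a filter on low values, where 57819 genes were tested, against 19048 in the main fit and with 1 library dropped. As a share of the genes tested it was below that of the main fit (41.0%). The unfiltered fit also moved the median over all genes to 0.60 on the log2 scale. IGFBP7 passed the threshold in limma without a filter (0.26), scaled to library totals (0.28), with quantile normalization (0.31), with voom (0.26), thinned to the smallest library (0.26) and with the GC and length trend removed (0.35). With 1 library dropped it spanned 0.17 to 0.38. IGFBP6 passed without a filter at an unchanged log2 fold change (-0.31), with an SE of 0.06 there and 0.16 in the main fit. For IGFBP7 these SEs were 0.06 and 0.10, so passing without a filter reflects a smaller SE and not a larger difference. IGFBP6 spanned -0.49 to -0.14 when 1 library was dropped. In the same fits IGFBP3 spanned -0.23 to -0.082 and IGFBP2 spanned -0.22 to 0.057. With the GC and length trend removed IGF2BP1 was -0.0046 and IGF2BP3, now called, -0.16; the cause was not tested. Replicate numbers are shared by the groups. Deviations of equal numbers correlated at -0.15, -0.18 and 0.07, and the highest correlation, 0.20, joined control replicate 2 and knockdown replicate 1. With 3 libraries a group these values cannot settle whether the libraries were paired. With the replicate number as a block 5 members, 40 list genes and 6454 genes were called. Depth limits IGF1, with 4 to 12 reads per library.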

Other observations

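H19, the imprinted noncoding RNA that neighbours IGF2 on chromosome 11 at a distance of 127641 bp with 0 listed genes between, had too few reads to be tested with the filter on low values. It had 5, 4 and 2 reads in control replicates 1, 2 and 3 and 9, 10 and 9 reads in the knockdowns. In RPM these were 0.147, 0.133 and 0.0397 in controls and 0.403, 0.427 and 0.321 in knockdowns, and the groups did not overlap. In the limma fit without that filter, H19 was called, the 1 gene called in its list of 4, on 10 reads or fewer per library. The median log2 fold change over all genes in that fit was 0.60, but most of these genes have few or no reads, so it is no baseline for H19. Because so few reads carry the call, it is not read as a rise of H19.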
